A study of Mus musculus with 33 samples.

Results

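The genes described here mark the bile duct lining and the progenitor-like cells of the liver. They are Sox9, Sox4, Krt7, Krt19, Epcam, Spp1, Cldn7, Cftr and Prom1, a list of 9 genes known as such markers. The list was chosen with earlier results of these data known. Each gene was represented by the probe set that carries its symbol alone and has the highest mean over all columns. Of the 9 genes, 8 were measured in this way, among 18193 genes in all. Spp1 was not matched to a probe set in the annotation used here and is not analysed here.

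RNA from mouse liver at 12 months of age was hybridised to 21 Affymetrix arrays. The groups were 7 normal livers of wild-type mice (wt), 5 normal livers of E2f3a knock-out mice (3aKO), 5 spontaneous hepatocellular carcinomas of E2f1 knock-in mice (1KI) and 4 of E2f3b knock-in mice (3bKI). All mice had a mixed background of FVB/NT, 129S1/Svlmj and C57BL/6NT. The loci of the knock-in alleles, and whether tumours were freed of surrounding liver, are not given in the sources used here. Every knock-in sample is a tumour and every other sample is normal liver, so genotype and tumour status cannot be told apart. The wt and 3aKO arrays were normalized once with the 1KI arrays (normalization 1) and once with the 3bKI arrays (normalization 2), so the tumour groups were each compared with the same normal livers and not with each other. All values are log2 expression, and levels of different probe sets are not compared.

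Bile ducts are lined by cholangiocytes, which modify the bile that hepatocytes secrete. Both cell types arise from bipotent hepatoblasts in the embryo, and Notch and YAP signalling favour the biliary fate. Duct-associated cells with progenitor features expand in many injured livers, and hepatocellular carcinomas can express biliary keratins. In bulk tissue, more cells of a type and more RNA per cell cannot be told apart.

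In tumours of both genotypes, Sox4 and Cldn7 lay above all wt livers on the probe set used for each. Of all genes, 1.12% lay wholly above wt in 1KI and 1.9% in 3bKI. The other probe sets of Sox4 did not all move alike. Sox4 is a transcription factor of the SRY-box family that is active in the developing bile duct, and Cldn7 is a claudin of epithelial tight junctions. Both rose in 3bKI against wt and against 3aKO, by between 1.77-fold and 2.48-fold. Among females alone, neither passed the test in 3bKI. In 1KI their shifts were of about 1 log2 unit but did not pass the test. Krt7, Cftr and the probe set used for Epcam had changes of at most 0.31 in either direction in the 5 comparisons, and none passed the test. Prom1 had the largest shifts, but it differed by sex in normal liver, where Sox9 differed in the opposite direction.

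Sequence upstream of the start sites is shown for Sox4 and Cldn7, the genes that passed the test in the tumours. RefSeq entries in build GRCm38.p6 were matched for 6 of the 8 measured genes. The 250 bases before the start lie on the minus strand at chr13:28953700-28953949 for Sox4. For Cldn7 they lie on the plus strand at chr11:69964529-69964778 for the first start and chr11:69965171-69965420 for the second start. Capitals mark the letters searched for TEAD factors (GGAATG) in Sox4 and the first Cldn7 start, and those for STAT5 (TTCNNNGAA) in the second Cldn7 start.
Sox4: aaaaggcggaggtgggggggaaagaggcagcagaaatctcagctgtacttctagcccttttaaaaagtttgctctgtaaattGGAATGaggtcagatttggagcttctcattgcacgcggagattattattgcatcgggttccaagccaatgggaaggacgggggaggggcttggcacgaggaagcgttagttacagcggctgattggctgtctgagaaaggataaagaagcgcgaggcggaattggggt
Cldn7, first start: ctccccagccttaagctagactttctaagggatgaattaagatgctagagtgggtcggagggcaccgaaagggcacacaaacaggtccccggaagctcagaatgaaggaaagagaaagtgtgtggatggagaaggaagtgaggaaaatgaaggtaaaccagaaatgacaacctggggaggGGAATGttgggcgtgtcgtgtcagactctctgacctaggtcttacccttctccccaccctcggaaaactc
Cldn7, second start: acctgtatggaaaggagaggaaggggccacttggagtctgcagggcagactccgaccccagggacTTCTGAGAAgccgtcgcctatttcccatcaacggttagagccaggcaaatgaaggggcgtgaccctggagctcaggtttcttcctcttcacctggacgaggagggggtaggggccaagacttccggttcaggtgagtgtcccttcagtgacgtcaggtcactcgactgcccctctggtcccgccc
The TEAD letters began at position -168 before the start of Sox4 and at position -70 before the first start of Cldn7. They were found on either strand in 12.6% of 32851 promoters of the same length. The STAT5 letters were found in 7.02% and began at position -185 before the second start of Cldn7. The letters searched for E2F factors (TTTNNCGC) were found in 4.28% of promoters and in none of the 8 windows of Prom1, Cftr, Cldn7, Sox4, Krt7 and Epcam. The letters searched for the 3 factors do not overlap one another in these windows, and a match is a description of the letters only.

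Sex is not labelled and was read from Xist and 3 Y-linked genes. There were 3 females and 4 males in wt, 3 and 2 in 3aKO, 2 and 3 in 1KI, and 3 females in 3bKI, where replicate 2 had low Xist and low Y-linked values and was left unclear. On the first principal component of normalization 1, 1KI replicates 3 and 4 stood apart, at 61.0 and 69.8, where all other arrays lay between -17.0 and 5.1. In normalization 2, 3bKI replicate 2 had the highest second component, at 39.8. The log2 difference between the 3' and 5' probe sets of beta-actin, a sign of RNA integrity, was 0.70 to 0.87 in 3bKI and 1.06 to 1.35 in 3aKO. It was 0.65 to 1.37 in wt in normalization 2 and 0.91 to 1.28 in 1KI. The part of RNA integrity in the results below was not tested.

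The transcription factors of the list came first. In normalization 1, Sox4 ranged over the wt livers from 6.40 to 6.67 with a median of 6.59. Its values in 3aKO livers were 6.85, 6.43, 6.58, 6.70 and 6.91, and those in 1KI tumours were 6.81, 7.13, 8.92, 8.35 and 7.11. All 5 1KI tumours lay above all 7 wt livers, 4 of 5 lay above all 3aKO livers, and replicates 3 and 4 were the highest. The log2 change of Sox4 in 1KI was 1.11 ± 0.31 (SE) against wt (limma, adjusted p = 0.133) and 0.97 ± 0.37 against 3aKO (adjusted p = 0.300). Without 1KI replicates 3 and 4, which are both male, the changes of Sox4 were 0.46 and 0.33. Against wt the change of Sox4 was 0.33 ± 0.13 among females alone and 1.64 ± 0.36 among males alone (adjusted p = 0.476 and 0.152). The male change exceeded the female change by 1.31 ± 0.48, which did not pass over all genes (adjusted p = 0.780).

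In normalization 2, Sox4 ranged over the wt livers from 6.33 to 6.64 with a median of 6.53, and its values in 3aKO were 6.79, 6.38, 6.52, 6.58 and 6.86. The 3bKI tumours had 7.30, 7.85, 7.36 and 7.28. All 4 tumours lay above every normal liver of both groups. Sox4 rose in 3bKI by a log2 change of 0.94 ± 0.11 against wt (1.92-fold, adjusted p = 0.00503) and 0.82 ± 0.14 against 3aKO (1.77-fold, adjusted p = 0.0155). Without 3bKI replicate 2, the changes were 0.81 and 0.69 (adjusted p = 0.00259 and 0.0228). Among females alone the changes were 0.72 and 0.59 (adjusted p = 0.0534 and 0.0804), which did not pass the test. With sex as a covariate Sox4 passed against wt (0.72, adjusted p = 0.0196) and missed the threshold against 3aKO (0.59, adjusted p = 0.0610). The covariate fit leaves out replicate 2, so it rests on the same 3 female tumours and gives the same changes. In 3aKO against wt, Sox4 had a change of 0.13 ± 0.09 (adjusted p = 0.737).

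**Figure D1:**
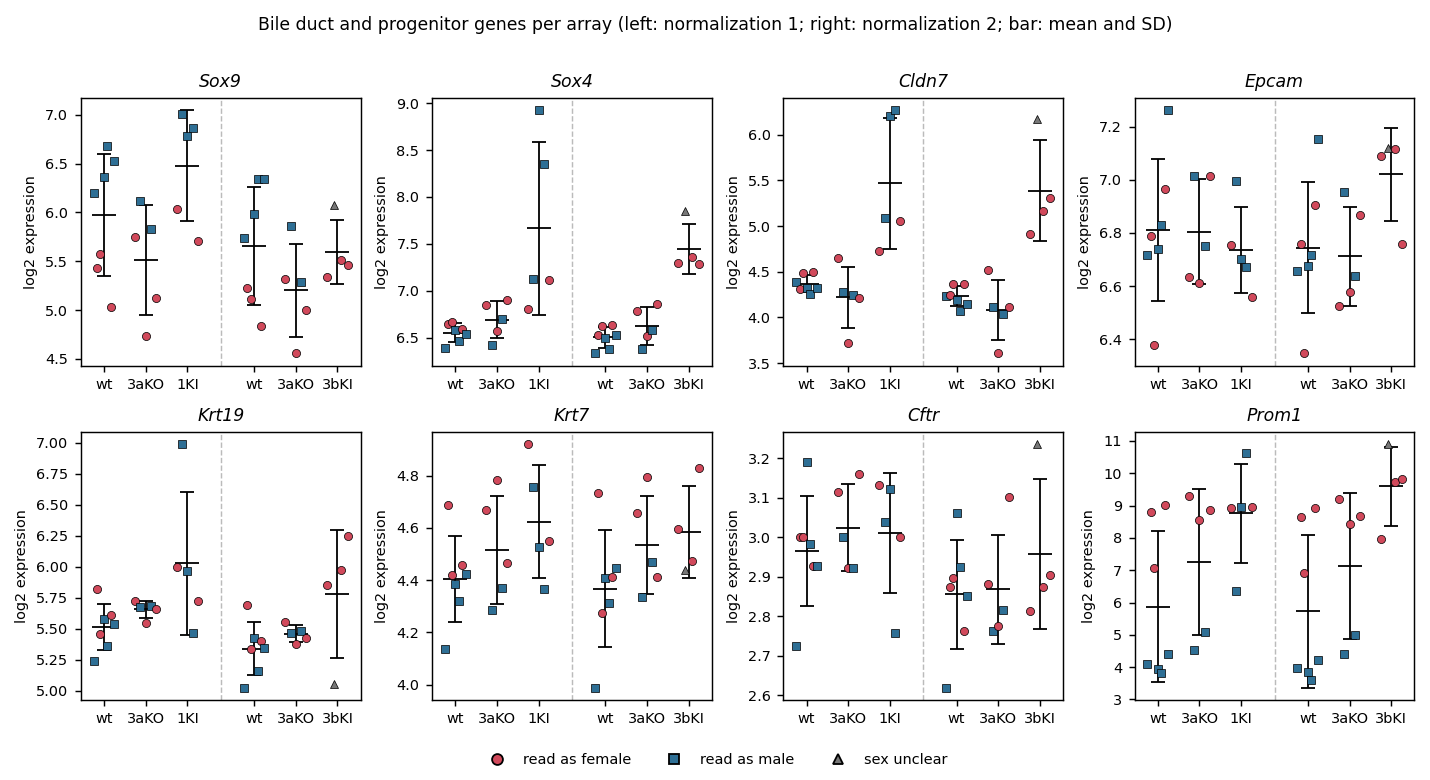
Log2 expression of the 8 measured genes in every array, with wt, 3aKO and 1KI of normalization 1 on the left of each panel and wt, 3aKO and 3bKI of normalization 2 on the right. Points are arrays marked by the sex read from the data, and bars give the group mean and SD. Sox4 and Cldn7 of the tumours lie above the wt livers, and Prom1 of normal liver separates by sex.

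Sox4 has 8 probe sets, and they did not move alike. When every probe set was tested, 5 of the 8 were higher in 3bKI against wt and against 3aKO. The share of all probe sets that passed is not given here. The probe set 1433575_at had the largest change, 2.40 ± 0.18 in 3bKI against wt and 2.63 ± 0.40 in 1KI against wt (adjusted p = 0.000219 and 0.0249). Its values were 7.40, 7.88, 10.09, 9.12 and 7.54 in the 1KI tumours and 7.58, 8.38, 7.92 and 7.59 in the 3bKI tumours. Its highest wt liver was at 6.35 in normalization 1 and 6.01 in normalization 2. So both tumour groups were separate from wt on this probe set, which was the 1 of 8 that passed the test in 1KI against wt. In 1KI against 3aKO its change of 2.29 ± 0.47 did not pass (adjusted p = 0.149). The probe sets 1455867_at, 1458332_x_at and 1443778_at did not pass in any comparison, with changes of 0.06, -0.35 and -0.33 in 1KI against wt. On 1443778_at every 1KI tumour lay below every wt liver, with a highest tumour of 4.02 and a lowest wt of 4.14 (adjusted p = 0.0984).

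Sox4 lies on chromosome 13, with 2 measured genes (A330102I10Rik and Cdkal1) between it and E2f3. E2f3 had a log2 change of 0.57 ± 0.13 in 1KI against wt and 0.10 ± 0.12 in 3bKI against wt (adjusted p = 0.0780 and 0.660). Against 3aKO the changes were 0.77 ± 0.15 and 0.31 ± 0.13 (adjusted p = 0.126 and 0.155). None of these passed the test. The other E2f3 probe set, 1427462_at, had 0.27 ± 0.09 and 0.40 ± 0.11 against wt (adjusted p = 0.162 and 0.0775 over all probe sets). Against 3aKO it had 0.34 ± 0.08 in 1KI (adjusted p = 0.179) and passed in 3bKI, with 0.43 ± 0.10 (adjusted p = 0.0285). The other measured genes of the list lie on chromosomes 5, 6, 11, 15 and 17.

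Sox9 encodes the transcription factor that marks bile ducts and the periportal cells beside them. In normalization 1, it ranged over the wt livers from 5.03 to 6.68 with a median of 6.20. The 3aKO livers had 5.75, 6.11, 4.74, 5.83 and 5.12, and the 1KI tumours had 6.04, 7.00, 6.78, 6.86 and 5.71. The 3 male tumours lay above every wt liver, and the 2 female tumours lay above the wt females. The change in 1KI was 0.51 ± 0.32 against wt and 0.97 ± 0.31 against 3aKO (adjusted p = 0.380 and 0.247). With sex as a covariate it was 0.48 ± 0.12 against wt (adjusted p = 0.0850).

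In 3bKI, Sox9 had 5.34, 6.07, 5.51 and 5.46, within the wt range of 4.84 to 6.35 in normalization 2. The 3aKO livers had 5.32, 5.86, 4.56, 5.28 and 5.00. The 3 tumours read as female, at 5.34, 5.51 and 5.46, lay above the highest wt female at 5.23. They also lay above the highest 3aKO female at 5.32. The change of Sox9 was -0.06 ± 0.29 against wt (adjusted p = 0.925), and it turned to 0.38 ± 0.17 with sex as a covariate (adjusted p = 0.407). Against 3aKO it was 0.39 ± 0.24 (adjusted p = 0.302), and 3aKO against wt it was -0.46 ± 0.31 (adjusted p = 0.741). A second probe set of Sox9, 1424950_at, gave 0.56 ± 0.35 in 1KI against wt and 0.06 ± 0.33 in 3bKI against wt. The third, 1433889_at, gave -0.02 ± 0.16 and -0.11 ± 0.18, and none of the 3 passed.

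**Figure D2:**
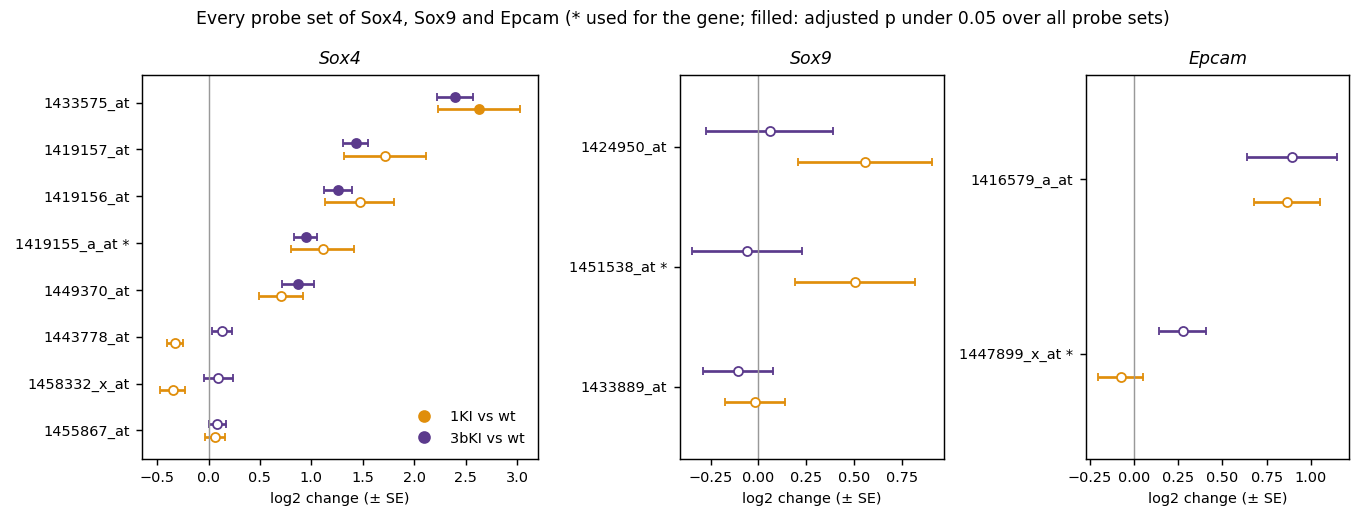
Log2 change (horizontal axis, ± SE) in 1KI and in 3bKI against wt for every probe set of Sox4, Sox9 and Epcam. Filled points passed an adjusted p of 0.05 over all probe sets, and the asterisk marks the probe set used for the gene. For Sox4, 5 of 8 probe sets passed in 3bKI and 1 of 8 in 1KI, each against wt.

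Of the junction and adhesion genes, Cldn7 passed the test in 3bKI and Epcam did not. In normalization 1, Cldn7 ranged over the wt livers from 4.25 to 4.49 with a median of 4.32, and the 3aKO livers had 4.65, 4.28, 3.72, 4.25 and 4.21. The 1KI tumours had 4.73, 5.09, 6.21, 6.27 and 5.06. All 5 lay above every normal liver of both groups, with replicates 3 and 4 again the highest. The change was 1.10 ± 0.24 against wt (2.15-fold, adjusted p = 0.0780) and 1.25 ± 0.31 against 3aKO (adjusted p = 0.199). Without 1KI replicates 3 and 4, Cldn7 had a smaller change of 0.59 ± 0.10 against wt that passed the test (adjusted p = 0.0344, range over the settings other than leaving out a single array 0.0280 to 0.378). The change of Cldn7 against wt was 0.46 ± 0.14 among females alone and 1.54 ± 0.27 among males alone (adjusted p = 0.378 and 0.116), and the difference between them, 1.07 ± 0.37, did not pass over all genes (adjusted p = 0.780).

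In normalization 2, Cldn7 ranged over the wt livers from 4.07 to 4.37 with a median of 4.23, and the 3aKO livers had 4.52, 4.12, 3.61, 4.04 and 4.12. The 3bKI tumours had 4.92, 6.18, 5.16 and 5.30, all above every normal liver. Cldn7 rose by 1.16 ± 0.19 against wt (2.23-fold, adjusted p = 0.0183) and by 1.31 ± 0.25 against 3aKO (2.48-fold, adjusted p = 0.0197). Without 3bKI replicate 2 the changes were 0.89 and 1.05 (adjusted p = 0.00364 and 0.0234). Among females alone they were 0.80 and 1.05 (adjusted p = 0.0631 and 0.0958), which did not pass. With sex as a covariate, again on the 3 female tumours only, Cldn7 likewise passed against wt (0.80, adjusted p = 0.0209). It did not pass against 3aKO (1.05, adjusted p = 0.0663). In 3aKO against wt, Cldn7 had a change of -0.15 ± 0.12 (adjusted p = 0.802).

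Epcam is an adhesion molecule of the biliary epithelium and of hepatic progenitors. Its probe set of highest mean, 1447899_x_at, had 6.75, 6.99, 6.70, 6.67 and 6.56 in the 1KI tumours, inside the wt range of 6.38 to 7.26. The 3bKI tumours had 7.09, 7.12, 7.11 and 6.76 against 6.35 to 7.15 in wt, so the groups overlapped. The change was -0.08 ± 0.13 in 1KI against wt and 0.28 ± 0.13 in 3bKI against wt (adjusted p = 0.759 and 0.263). Against 3aKO, Epcam had -0.07 ± 0.11 in 1KI and 0.31 ± 0.12 in 3bKI (adjusted p = 0.796 and 0.118).

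The other Epcam probe set, 1416579_a_at, differed from it. It had 6.69, 7.21, 6.74, 6.15 and 6.53 in the 1KI tumours, all above the highest wt liver at 6.06. In 3bKI it had 6.56, 5.70, 7.19 and 7.04 against a highest wt value of 6.02, so replicate 2 stayed among the wt livers. The changes against wt were 0.86 ± 0.19 in 1KI and 0.89 ± 0.26 in 3bKI (adjusted p = 0.0830 and 0.0885), and neither passed over the 34945 probe sets tested. By its design, a probe set with the ending x_at may bind transcripts of other genes. The mean of both Epcam probe sets was higher in 3bKI against 3aKO, by 0.64 ± 0.14 (adjusted p = 0.0275, range over the settings other than leaving out a single array 0.0275 to 0.269).

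The keratins of the duct lining form its intermediate filaments. Krt19 had 6.00, 6.99, 5.97, 5.47 and 5.72 in the 1KI tumours, where wt ranged from 5.24 to 5.82 and 3aKO from 5.54 to 5.72. In 3bKI it had 5.85, 5.05, 5.97 and 6.25, where wt ranged from 5.02 to 5.69 and 3aKO from 5.38 to 5.55. In each tumour group, 3 tumours lay above every wt liver, and 3bKI replicate 2 was near the lowest wt liver. The change of Krt19 was 0.52 ± 0.21 in 1KI against wt and 0.44 ± 0.19 in 3bKI against wt (adjusted p = 0.217 and 0.219). Against 3aKO, Krt19 had 0.37 ± 0.23 in 1KI and 0.32 ± 0.20 in 3bKI (adjusted p = 0.475 and 0.307).

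Krt19 was called in 3bKI only when that array was left out, which sets 3 female tumours against normal livers of both sexes. Without 3bKI replicate 2, Krt19 had a change of 0.68 ± 0.14 against wt and 0.56 ± 0.10 against 3aKO (adjusted p = 0.0460 and 0.0256). Over all settings that leave out a single array, its adjusted p ranged from 0.0460 to 0.446 and from 0.0256 to 0.600. Over the other settings, the smallest adjusted p of Krt19 was 0.127 against wt and 0.0674 against 3aKO. The sex covariate and females alone are among those settings, and Krt19 passed in none. Krt7, the second keratin of the list, ranged over the tumours from 4.36 to 4.92 in 1KI and from 4.44 to 4.83 in 3bKI. Wt livers had 4.14 to 4.69 and 3.99 to 4.73, so the groups overlapped. The change of Krt7 against wt was 0.22 ± 0.11 in 1KI and 0.22 ± 0.13 in 3bKI (adjusted p = 0.285 and 0.348).

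Cftr, the chloride channel of the cholangiocyte membrane, ranged from 2.62 to 3.24 over all columns. Its change was 0.05 ± 0.09 in 1KI against wt and 0.10 ± 0.10 in 3bKI against wt (adjusted p = 0.795 and 0.608). Against 3aKO, Cftr had -0.01 ± 0.09 in 1KI and 0.09 ± 0.11 in 3bKI, and Krt7 had 0.11 ± 0.13 and 0.05 ± 0.12. In 3aKO against wt, Krt19, Krt7, Cftr and Epcam had changes of 0.14, 0.11, 0.06 and -0.01. None of these passed the test. Cftr, Krt7 and Cldn7 are among the 40% of genes of lowest mean in every comparison, and Krt19 in all but 1KI against 3aKO, and Sox9 in both comparisons of 3bKI.

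**Figure D3:**
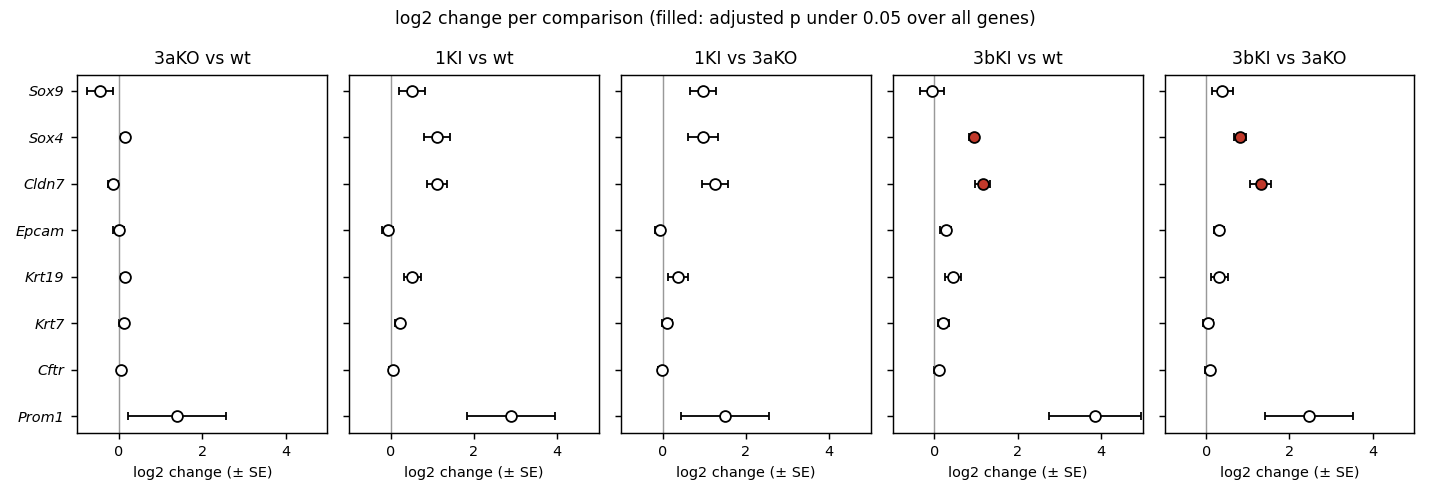
Log2 change ± SE of the 8 genes in the 5 comparisons, with filled points for an adjusted p under 0.05 over all 18193 genes. Sox4 and Cldn7 are filled in both comparisons of 3bKI, and Prom1 has the widest errors.

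Prom1 encodes prominin 1, a membrane glycoprotein used as a marker of hepatic progenitors. In normalization 1, the wt males had 4.11, 3.95, 3.83 and 4.40, and the wt females had 8.79, 7.06 and 9.01. The 3aKO males had 4.53 and 5.10, and the 3aKO females had 9.29, 8.55 and 8.85. No normal female overlapped any normal male. Over the 12 normal livers, with genotype in the fit, Prom1 was higher in females by 4.16 ± 0.28 (adjusted p = 2.76e-06), and Sox9 was lower in females by a change of -0.96 ± 0.17 (adjusted p = 0.00785). These 2 were the only ones of the 8 genes that passed, where 2.53% of all genes did, and the comparison by sex was chosen after seeing the data. In normalization 2, which holds the same arrays, the values were 4.17 ± 0.29 and -0.86 ± 0.17 (adjusted p = 3.62e-06 and 0.0148).

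In the 1KI tumours of males, Prom1 had 6.35, 8.94 and 10.62, all above the highest normal male at 5.10. The 1KI tumours of females had 8.94 and 8.97, inside the range of normal females. Prom1 had a change of 2.89 ± 1.06 in 1KI against wt (7.40-fold, adjusted p = 0.193), of 4.57 ± 0.83 among males alone and of 0.67 ± 0.52 among females alone (adjusted p = 0.121 and 0.653). None of the 3 passed the test. The difference between the male and the female change was 3.90 ± 1.21 and did not pass either (adjusted p = 0.780). Against 3aKO the change of Prom1 was 1.50 ± 1.06 (adjusted p = 0.530).

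In 3bKI, Prom1 had 7.95, 9.73 and 9.82 in the females and 10.90 in the array of unclear sex. Normal females of normalization 2 ranged from 6.90 to 9.19. The change against wt was 3.87 ± 1.10 (14.6-fold, adjusted p = 0.0864), and with sex as a covariate it was 1.01 ± 0.55 (adjusted p = 0.484). Against 3aKO it was 2.47 ± 1.05 and 0.41 ± 0.47 with the covariate (adjusted p = 0.154 and 0.662). The covariate fits leave out the array of unclear sex. In 3aKO against wt, Prom1 had 1.39 ± 1.17 (adjusted p = 0.805), and 0.68 ± 0.29 with sex in the fit (adjusted p = 0.554).

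**Figure D4:**
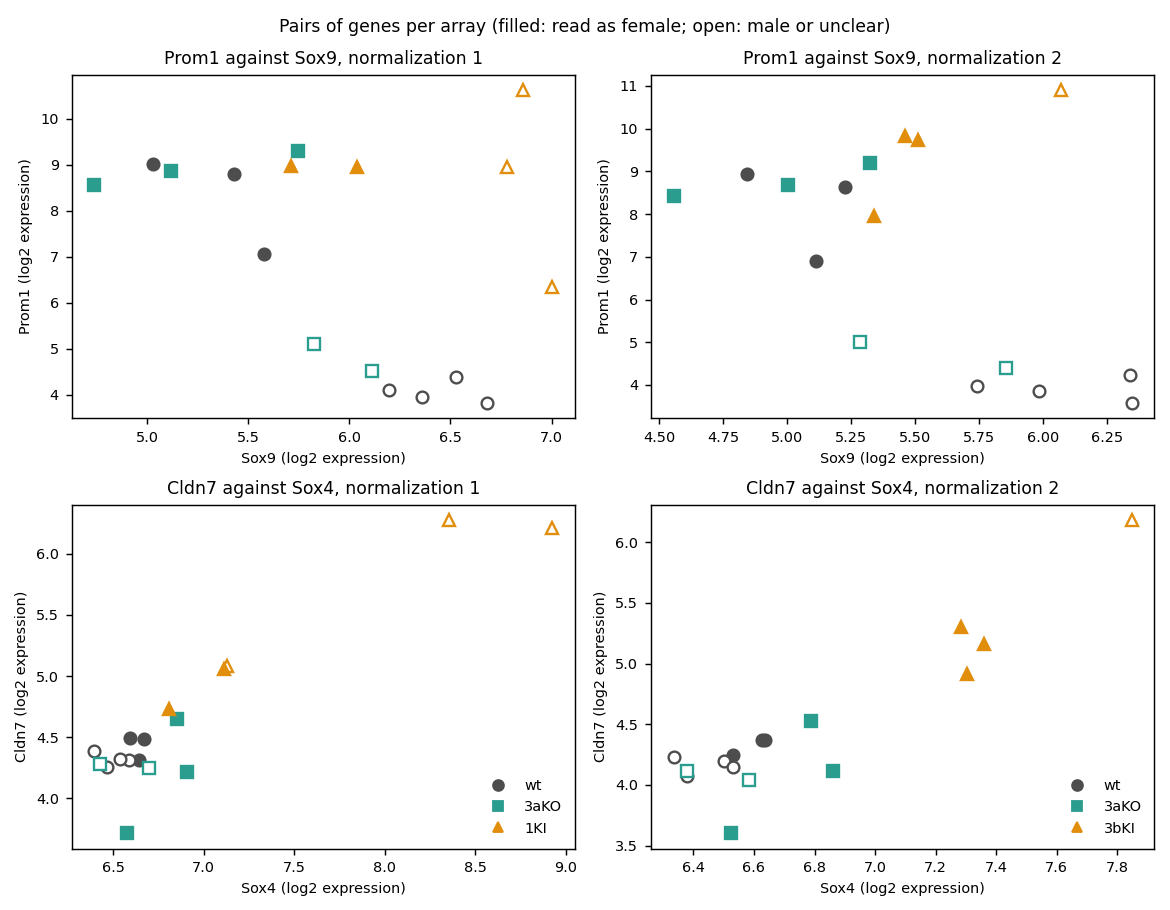
Prom1 against Sox9 (top) and Cldn7 against Sox4 (bottom), each point 1 array on log2 axes, in normalization 1 (left) and normalization 2 (right). Filled points were read as female. Normal females have high Prom1 and normal males low Prom1, and the arrays highest in Sox4 are the highest in Cldn7, 1KI replicates 3 and 4 and 3bKI replicate 2.

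Counted over the list, no gene passed in 3aKO against wt, where 0% of all genes did. At an unadjusted p under 0.05, 0 of the 8 genes and 1357 of all genes passed there. In 1KI against wt, 0 of 8 passed, where 0.242% of all genes did. Sox4 and Cldn7 lay wholly above wt, as 1.12% of all genes did. In 1KI against 3aKO, 0 of 8 passed, as 0% of all genes did, while 3 of the 8 and 2550 of all genes had an unadjusted p under 0.05. Cldn7 lay wholly above 3aKO, as 1.45% of all genes did.

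In 3bKI against wt, 2 of the 8 genes passed, both higher, where 2.07% of all genes passed and 1.09% were higher. The 2 lay wholly above wt, as 1.9% of all genes did. In 3bKI against 3aKO the same 2 of the 8 passed, where 9.18% of all genes passed and 2.92% were higher. They lay wholly above 3aKO, as 6.03% of all genes did. The median change of the 8 genes was 0.08 in 3aKO against wt, 0.51 and 0.67 in 1KI against wt and 3aKO, and 0.36 and 0.36 in 3bKI against wt and 3aKO. The medians over all genes lay between -0.03 and 0.03 in those comparisons, and the comparisons share their normal livers.

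By array, 4, 5, 4, 4 and 2 of the 8 genes lay above the highest wt liver in the 1KI tumours, and 3, 4, 4 and 5 in the 3bKI tumours. In the 3aKO livers the number was 0 to 3. Sox4 and Cldn7 were among them in each of the 9 tumours. Which further genes joined them varied, with Sox9 in 3 of the 1KI tumours and Krt19 in 3 tumours of each genotype. The share of all genes above the highest wt liver was not counted by array. These counts therefore do not show whether the list differs from other genes.

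Genes whose log2 values followed those of these genes most closely are given by Pearson's r of deviations from the group mean over the 17 arrays of normalization 1, as a description. For Cldn7 they were Sparc, App and Hid1 (r = 0.93, 0.92 and 0.92), with r of 0.91, 0.77 and 0.82 over the 16 arrays of normalization 2. For Prom1 they were Sybu, Cbr1 and Tmem98 (r = 0.94, 0.92 and 0.92, and 0.95, 0.85 and 0.85 in normalization 2). For Sox4 they were Klrb1b, Il1rn and Gprc5b, each at r = 0.96, with r of 0.71, 0.74 and 0.09 in normalization 2. 1KI replicates 3 and 4, the highest in Sox4 and in Cldn7 in normalization 1, are not in normalization 2. The normal livers are the same arrays in both. The deviations were not adjusted for sex, by which Prom1 differed in normal liver, so its r values include that difference.

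Of 38 further bile duct and progenitor genes, 34 were measured. In 1KI against wt 1 of the 34 was higher, where 0.209% of all genes were. This was Cd24a, a surface glycoprotein of progenitor cells, with 1.39 ± 0.25 (adjusted p = 0.0443). In 3bKI 4 of the 34 were higher against wt, where 1.09% of all genes were, and 4 against 3aKO, where 2.92% of all genes were, and none was lower. They were Pkhd1, which encodes fibrocystin of the cholangiocyte cilium (1.13 ± 0.25 against wt, adjusted p = 0.0439), the sodium-glucose transporter Slc5a1 (1.04 ± 0.23, adjusted p = 0.0384), the RNA-binding protein gene Bicc1 (0.92 ± 0.14, adjusted p = 0.0127) and the keratin gene Krt8 (0.70 ± 0.14, adjusted p = 0.0341). Krt8 is also expressed by hepatocytes. In 1KI against 3aKO none of the 34 passed, and in 3aKO against wt none did. The median change of the 34 was 0.29 in 1KI against wt and 0.22 in 3bKI against wt. The fits of this list and of the lists below do not include sex. No 3bKI array was read as male, whereas wt and 3aKO hold males. With sex as a covariate, the genes called over all genes fell from 377 to 67 in 3bKI against wt. Against 3aKO they fell from 1671 to 145. Values of the listed genes with sex in the fit are not given here.

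Of 12 Notch pathway genes, none passed in any comparison. Jag1, the Notch ligand that patterns bile ducts, had 0.36 ± 0.11 in 1KI against wt and 0.32 ± 0.15 in 3bKI against wt (adjusted p = 0.146 and 0.240). Of 13 YAP and TEAD pathway genes, Ccn1, a secreted YAP target, was higher in 3bKI against wt by 0.87 ± 0.15 and against 3aKO by 0.59 ± 0.16 (adjusted p = 0.0206 and 0.0473). Tead4 was higher against 3aKO by 0.32 ± 0.08 (adjusted p = 0.0363). Over all genes, 1.09% were higher in 3bKI against wt and 2.92% against 3aKO. None of the 13 passed in 1KI.

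Markers of other cells changed in the same tumours. Of 12 stellate cell genes, 5 were higher in 3bKI in both comparisons, where 1.09% of all genes were against wt and 2.92% against 3aKO. Among the 5 were the collagen genes Col3a1 (1.71 ± 0.33 against wt, adjusted p = 0.0294) and Col1a2 (1.27 ± 0.21, adjusted p = 0.0206). In 1KI against wt 1 of the 12, Pdgfrb, was higher, where 0.209% of all genes were. The mean level of the 12 ranged from 7.83 to 8.58 in 3bKI, from 7.24 to 7.67 in wt of normalization 2 and from 7.40 to 7.87 in 3aKO. In 1KI it ranged from 8.06 to 8.43, above the 7.35 to 7.79 of wt in normalization 1. Their part in the changes of Sox4 and Cldn7 was not tested.

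Of 15 macrophage genes, 3 were higher in 3bKI against 3aKO, where 2.92% of all genes were, and none against wt. All 15 had a change above 0 in 3bKI against wt, and 6 had in 1KI against wt. The mean level of the 15 ranged from 8.47 to 9.59 in 3bKI, from 8.01 to 8.78 in 3aKO and from 7.93 to 8.54 in wt. Of 10 endothelial genes, Plvap was higher in 1KI against wt, where 0.209% of all genes were. Of 10 T, NK and B cell genes, Cd79a was higher in 3bKI against 3aKO, where 2.92% of all genes were. Of 13 hepatocyte genes, 1 (Cps1) was lower in 3bKI against 3aKO, where 6.27% of all genes were lower. The mean of the hepatocyte genes ranged from 11.76 to 13.02 in 1KI, from 12.35 to 12.76 in 3bKI and from 12.56 to 12.90 in wt over both normalizations. The lowest tumour of each tumour group lay below every wt liver. The median 1KI tumour was at 12.89, above the median wt liver of normalization 1 at 12.81. In each comparison of a tumour group with wt, 10 of the 13 had a change below 0. The median change was -0.11 in 1KI and -0.13 in 3bKI. In 3bKI against 3aKO, 11 of the 13 had a change below 0, with a median of -0.28. Of all genes, 43.3% had a change above 0 in 1KI against wt. That share was 53.1% in 3bKI against wt and 54.7% in 3bKI against 3aKO. None of 6 mesothelial and 4 pancreatic acinar genes passed in any comparison.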

How the data were processed

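RNA of 21 mouse livers or liver tumours was measured on Affymetrix arrays. The deposited table holds log2 expression values per probe set in 33 columns, normalized by the authors in 2 runs per the labels; the method is not given in the sources used here. The 12 wt and 3aKO arrays are in both runs.

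Of 45101 probe sets, 34945 carried 1 gene symbol, and the probe set of highest mean over all columns stood for each of 18193 genes. The 2 groups of a comparison were fitted alone in R 4.3.3, by lmFit and eBayes of limma 3.58.1, two-sided, with Benjamini-Hochberg adjustment over all genes, and a gene passed at an adjusted p under 0.05. The code was tested on simulated data. P-values measure the spread between arrays, whose separate animals the labels do not state beyond their numbers, and the number of arrays limits the precision. Fold changes were computed from the deposited log2 values.

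Sex was read from Xist (a log2 cut of 10) and 3 Y-linked genes (a cut of 5 for their mean). The genes, the lists and the tests were chosen with earlier results of these data known, and the splits by sex were chosen after seeing the data. Genes named from a list are those that passed, up to 6 in each direction, or from those of lowest p; from lists of other cells only some are named. Alternatives were quantile normalization, leaving out the 40% of genes of lowest mean, averaging probe sets per gene, testing each probe set, fitting the 3 groups of a run together, a replicate block, a sex covariate, and leaving out arrays.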

Additional observations from a re-analysis of the deposited data

Results flagged for a closer look

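Among 48 sets of 4 to 7 arrays of 1 gene in 1 group, 2 held an array far from the rest, and chance alone would be expected to mark about 1 in 20 of them. Sox4 in 3bKI replicate 2 was at 7.85, where the next highest 3bKI tumour was at 7.36. Epcam in 3bKI replicate 4 was at 6.76 on the probe set used for the gene, where the next lowest was at 7.09. Without 3bKI replicate 2, Sox4 kept its direction and its call in both comparisons of 3bKI.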

How the results depend on the processing

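In 85 of 100 values under the alternatives, the number of the 8 genes called was equal to the value given first. It was higher in 9 and lower in 6. The 100 include 3aKO against wt, where leaving out single arrays called 0 to 1 of all genes, so an equal count was likely there. A lower count was possible only in 3bKI, as the other comparisons began at 0. In the fit with all 3 groups, the number moved from 0 to 2 in 1KI against wt and to 1 in 1KI against 3aKO. It was also 1 in 1KI against wt without 1KI replicates 3 and 4. In 3bKI it fell from 2 to 1 against wt and to 1 against 3aKO without the 40% of genes of lowest mean, where Cldn7 is no longer tested. Among females only it was 0 against wt and 0 against 3aKO, and with sex as a covariate it was 0 against 3aKO. Leaving out single arrays gave 0 to 1 in 1KI against wt, and 2 to 3 in both comparisons of 3bKI.

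Replicate numbers are not stated to pair the samples, and the correlation of same-numbered deviations ranged from -0.469 to 0.443. With the replicate block, 0 of the 8 genes were called in 3bKI against 3aKO (Sox4 adjusted p = 0.0682, Cldn7 adjusted p = 0.0701). Prom1 was called in 3bKI against wt with the block (3.76, adjusted p = 0.0377), and without wt replicate 6 (4.40, adjusted p = 0.0442). The block moved the count over all genes from 1671 to 50 in 3bKI against 3aKO, from 377 to 694 in 3bKI against wt and from 44 to 1 in 1KI against wt. With sex as a covariate in 3bKI against 3aKO, the adjusted p was 0.0610 for Sox4 and 0.0663 for Cldn7, and 145 genes were called in all, with 67 in 3bKI against wt and 93 in 1KI against wt. The fit with all 3 groups called 313 genes in 1KI against wt, 57 in 1KI against 3aKO and 996 in 3bKI against wt. Quantile normalization called 844 genes in 3bKI against 3aKO. Leaving out single arrays gave 2 to 69 genes in 1KI against wt, 49 to 848 in 3bKI against wt and 490 to 1440 in 3bKI against 3aKO.

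Changes of sign were all in values that did not pass the test. Epcam turned to 0.115 with the block, 0.0213 with sex as a covariate and 0.0441 in females only in 3aKO against wt, where leaving out single arrays gave -0.0779 to 0.0694. It turned to 0.39 with the mean of its probe sets and 0.0453 with the block in 1KI against wt, and to 0.41 with the mean of its probe sets in 1KI against 3aKO. Cftr in 1KI against 3aKO turned to 0.0034 under quantile normalization, 0.0061 with sex, 0.0016 in females, 0.0107 in males and 0.0337 without 1KI replicates 3 and 4, and to between -0.0442 and 0.0499 without single arrays. Cftr in 3bKI against 3aKO turned to -0.0555 with sex as a covariate and to -0.0555 in females, and ranged from -0.0035 to 0.15 without single arrays. Krt7 in 3bKI against 3aKO turned to -0.0788 under quantile normalization and ranged from -0.0315 to 0.116 without single arrays. Sox9 in 3bKI against wt turned to 0.0788 with the block, to 0.38 with sex as a covariate and to 0.38 in females, and ranged from -0.22 to 0.0538 without single arrays. The cause of these shifts was not tested. In 3bKI the count rose to 3 with Krt19 without 3bKI replicate 2 in both comparisons, with Prom1 against wt as above, and with the mean of the Epcam probe sets against 3aKO. Low signal limits what can be read for Cftr, Krt7, Krt19 and Cldn7, and for Sox9 in 3bKI, and the number of arrays limits all values.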
